A study of Caenorhabditis elegans with 64 samples.

Results

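The F-box A genes of Caenorhabditis elegans were taken as every gene whose WormBase symbol begins with fbxa-, which gave 222 members among the 31106 genes of the small RNA tables. Of these, 170 were annotated as protein-coding and 52 as pseudogenes. The mRNA tables held 45904 gene names, among them 221 of the members, and fbxa-205 was not analysed here for mRNA. The study asked how the loss of SIMR-1, a tudor domain protein placed between piRNAs and the mutator complex, changes small RNAs and mRNAs, and whether growth at a raised temperature over generations adds to the change. Whole day 1 adult hermaphrodites of the wild-type strain N2 and of the mutant simr-1(cmp36) were profiled, all grown from synchronized L1 larvae on enriched peptone plates at about the same density. Both strains were kept at 20°C or at 25°C and sampled in generations 1, 2, 7 and 10 at 25°C. Each of these 10 groups had 2 small RNA libraries (18 to 30 nt, treated so that triphosphorylated small RNAs were captured) and 3 poly(A) mRNA libraries. A further 14 single small RNA libraries came from 20°C animals, 1 each of wild-type, mut-16(pk710), rde-8(tm2252), nyn-2(tm4844); nyn-1(tm5004), rsd-2(pk3307), wago-1(tm1414), math-33(ok2974), simr-1(cmp36), hpo-40(cmp46), the double mutant of simr-1 with hpo-40, C33G3.6(cmp44), F37C4.5(ok3454), hgo-1(tm4989) and Y57G11C.3(cmp47). Every mutant strain carries a germline allele in all tissues, simr-1(cmp36) is represented by 1 strain (USC863), and each library pools many animals. The labels call the mRNA replicates biological and do not say so for the small RNA pairs, so p-values for small RNAs measure only the spread between these libraries, which may be technical.

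F-box proteins are the substrate-recognizing subunits of SCF ubiquitin ligases, in which a cullin scaffold binds a Skp1-related adaptor and the adaptor binds the F-box. The family is greatly expanded in nematodes, where most members also carry a second domain first described in FOG-2, the F-box protein that permits sperm formation in hermaphrodites. A pair of members, fbxa-75 and fbxa-158, encode partners of CUL-6, a cullin of the intracellular pathogen response, and the roles of most others are not known. Many such genes are targets of the mutator pathway, in which RNA-dependent RNA polymerases copy an mRNA into antisense 22G small RNAs that are loaded into WAGO Argonautes and can silence the gene.

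The members lie in tandem clusters, with 92 on chromosome V, 73 on III, 21 on II, 17 on X, 13 on I and 6 on IV. Gene coordinates are those of the WS258 annotation used by the authors, which fits the WBcel235 genome sequence (478 of 493 splice sites of the members, 97.0%, were canonical there). Recent copies share sequence, and reads from shared stretches cannot be assigned to 1 copy. In 88 members more than 5% of the 22-base windows of the exons occur elsewhere in the genome. The pairs below are shown because the results turn on them and because their similarity decides how far their reads can be told apart. The sequences are from RefSeq WBcel235, 5′ to 3′, the first 30 coding bases, and capitals mark bases that differ within a pair. Members fbxa-107 and fbxa-108 have 24 of 30 bases in common.
fbxa-107 (chrV:18123977-18124006, plus strand): atggccgaTAatttggaTgaaaaaAtgaAA
fbxa-108 (chrV:17658134-17658163, minus strand): atggccgaCGatttggaCgaaaaaGtgaTT

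Members fbxa-10 and fbxa-11 stand next to each other and have 22 of 30 bases in common. Only 0.6% and 0.0% of their 22-base windows are repeated, so their reads can largely be told apart.
fbxa-10 (chrIII:952544-952573, plus strand): atgCctGAAttgTtggatatgcctTtGgCa
fbxa-11 (chrIII:950882-950911, plus strand): atgTctACTttgCtggatatgcctGtAgAa

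Members fbxa-117 and fbxa-118 differ at 1 of the 30 bases, and 38.1% and 39.6% of their windows are repeated.
fbxa-117 (chrV:18310924-18310953, plus strand): atggcagaGaaattgacgattgagttggat
fbxa-118 (chrV:19777145-19777174, minus strand): atggcagaAaaattgacgattgagttggat

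Members fbxa-110 and fbxa-111 are identical over all 30 bases, and 74.9% and 66.9% of their windows are repeated, so their values are partly shared.
fbxa-110 (chrV:16936203-16936232, plus strand): atgaccgaaaacctgacgaaacagttgaat
fbxa-111 (chrV:16949645-16949674, minus strand): atgaccgaaaacctgacgaaacagttgaat

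Members fbxa-67 on chromosome III and fbxa-24 on chromosome II share a coding stretch of 75 bases, whose first 30 bases are shown.
fbxa-67 (chrIII:949664-949693, minus strand): catctgttccactttcaatggttccagatc
fbxa-24 (chrII:3817833-3817862, plus strand): catctgttccactttcaatggttccagatc

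The pseudogenes fbxa-204 and fbxa-205 are identical over all 688 bases of their loci, so their reads cannot be told apart. Both were kept as separate members in the small RNA counts below, and each was called lower in simr-1 in 3 conditions. Exons of fbxa-168 overlap those of fbxa-169 on the same strand, those of fbxa-93 overlap W09G3.1 and those of fbxa-188 overlap skr-5. Small RNA reads were counted without regard to strand, so small RNAs from overlapping genes cannot be told apart.

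Reads on genes numbered 2835252 to 12893224 per replicated small RNA library, 2392511 to 50329478 per single library and 8055126 to 38633453 per mRNA library. The simr-1 mRNA itself was at 48.9 to 218.1 CPM (counts scaled to the depth of the library) in wild-type and 6.86 to 26.3 CPM in the mutant libraries, with no overlap. The wild-type libraries of generations 1 and 2 at 25°C and the simr-1 libraries of generation 2 stood apart in both assays. In the small RNA libraries, reads on genes were 42.4% to 43.5% of mapped reads in wild-type generation 1, 41.1% to 43.2% in wild-type generation 2, 45.3% to 50.8% in simr-1 generation 2, and 58.7% to 69.4% in all other replicated groups. In the mRNA libraries, the summed level of 4 oocyte markers was 765.5 to 920.2 CPM in wild-type generation 1 against 3433.8 to 3968.8 CPM at 20°C and 3925.5 to 4185.0 CPM in simr-1 generation 1. Over the same groups, 2 muscle markers summed to 1105.6 to 1432.6, 416.6 to 572.3 and 516.8 to 629.1 CPM, and 2 hypodermis markers, dpy-7 and col-19, to medians of 132.2, 545.9 and 334.3 CPM. In these lists none of the defining markers was at 0 in any group. In generation 2 the oocyte markers summed to 769.1 to 1262.9 CPM in wild-type and 1345.8 to 1702.7 CPM in simr-1, the muscle markers to 1741.2 to 3432.1 and 1339.6 to 1964.0 CPM, and the sperm markers to 10.2 to 16.2 CPM in wild-type and 69.7 to 95.1 CPM in simr-1. In generation 10 the 4 germ line markers summed to 1594.2 to 1727.9 CPM in wild-type and 2254.9 to 2324.7 CPM in simr-1. At 20°C they summed to 3186.5 to 3688.7 and 3066.1 to 3080.6 CPM. The sperm markers of generation 10 summed to 8.63 to 15.45 CPM in wild-type and 18.2 to 20.5 CPM in simr-1, without overlap. The part of these shifts in the results for generations 1, 2 and 10 was not tested. Fewer cells of a type and less RNA per cell cannot be told apart in whole animals. Results from generations 1 and 2 alone rest on the libraries that stood apart.

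Small RNAs were concentrated on a minority of the family. Levels are given in RPM, reads scaled to all genome-mapped reads of the library, averaged over the 20 replicated libraries. At least 10 RPM was reached by 49 of 222 members, 34 of the 170 protein-coding genes and 15 of the 52 pseudogenes, and at least 100 RPM by 7. The median member was at 0.591 RPM, and 1 member was at 0 in every library. The highest levels were those of fbxa-218 (chrIII:12436552-12441056, plus strand) with a mean of 583 RPM, the pseudogene fbxa-203 (chrI:3371769-3373834, plus strand) with 581 RPM, the pseudogene fbxa-149 (chrV:20516298-20518036, minus strand) with 529.9 RPM, the pseudogene fbxa-193 with 256 RPM and fbxa-67 with 247 RPM. Per kilobase of exon, these mean small RNA levels were 354, 500.3, 490.2, 221 and 206 RPM, so fbxa-203 and fbxa-149 stood above fbxa-218 on that scale. Small RNAs against fbxa-149 were among the steadiest, between 427 and 676 RPM in all 20 libraries. Its log2 fold change between simr-1 and wild-type was -0.14 ± 0.03 (SE) at 20°C and -0.36 ± 0.05 in generation 10, in neither case the 2-fold required of a call.

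The mRNA levels had a different order. At least 1 CPM on average was reached by 126 of 221 members and at least 10 CPM by 27, with a median of 1.64 CPM and 2 members at 0 in every library. The highest were fbxa-215 (chrIV:13665345-13666909, minus strand) with 300.5 CPM, fbxa-24 (chrII:3816686-3818238, plus strand) with 116 CPM, fbxa-210 with 78.0 CPM, fbxa-101 with 58.0 CPM and fbxa-60 with 55.3 CPM. Per kilobase of exon these mean mRNA levels were 220.3, 77.3, 58.7, 50.1 and 47.7 CPM, in the same order. None of these 5 was among the 5 members richest in small RNAs. Members fbxa-210 (55.9 to 96.3 CPM) and fbxa-101 (38.9 to 73.6 CPM) were not called in any of the comparisons below.

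Summed over all members, small RNAs of the replicated libraries were at the same level in both strains at 20°C, in RPM. In every generation at 25°C they were lower in simr-1. The sums in wild-type were 5714 ± 0.849 RPM (mean ± SD of 2 libraries) at 20°C, 4758 ± 49.4 in generation 1, 4309 ± 53.7 in generation 2, 4882 ± 133 in generation 7 and 3946 ± 157.8 in generation 10. The sums in simr-1 were 5673 ± 61.2, 4308 ± 98.8, 3899 ± 183, 3057 ± 16.7 and 2259 ± 46.1 RPM in the same order. The libraries of both strains overlapped at 20°C and did not overlap in any generation at 25°C. The equal sums at 20°C hid opposite changes of members. Of 154 members tested there, 122 had a log2 fold change below 0 and 32 above 0. The pseudogene fbxa-203 made up 11.3% and 11.8% of the wild-type sums and 23.4% and 23.9% of the mutant sums. The single wild-type library of 20°C summed to 4927.3 RPM and its simr-1 counterpart to 3965.9 RPM, with no replicate check. In that simr-1 library fbxa-203 made up 16.9% of the sum, and in that wild-type library no member made up more than 12.6%. Summed mRNA was 1072 ± 51.2 CPM (mean ± SD of 3 libraries) in wild-type at 20°C, 1936 ± 70.2 in generation 1, 1805 ± 171 in generation 2, 1328 ± 46.7 in generation 7 and 1220.4 ± 32.7 in generation 10. In simr-1 it was 1118 ± 48.1, 1424 ± 49.0, 1487 ± 36.4, 1229.8 ± 65.7 and 1306 ± 44.0 CPM. The mRNA sums of generations 1 and 2 were thus the highest in each strain, with wild-type libraries above mutant libraries.

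**Figure D1:**
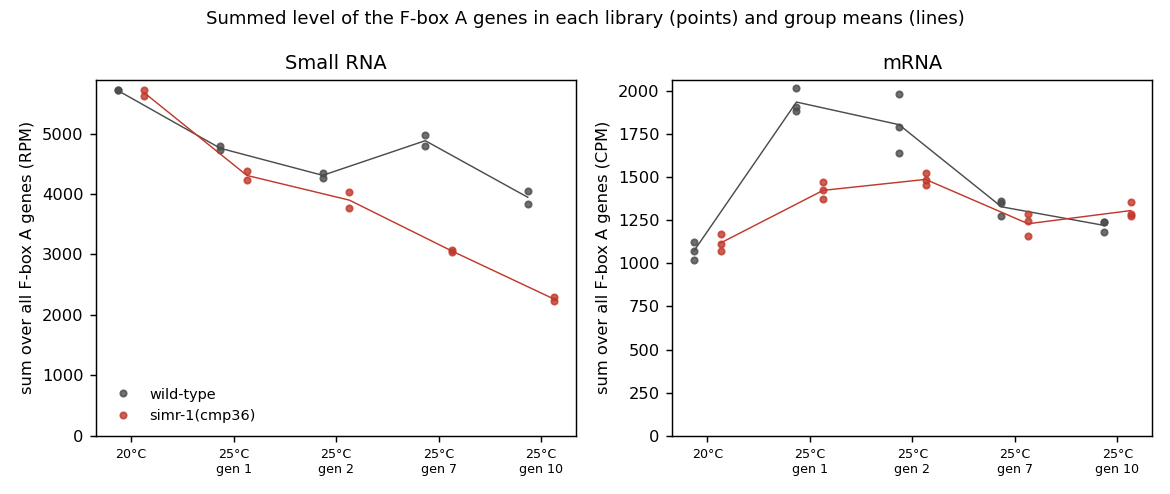
Summed small RNA level (RPM, left) and summed mRNA level (CPM, right) of all F-box A members in each library, by growth condition, for wild-type and simr-1. Points are libraries and lines join group means. Small RNA sums of simr-1 have a mean of 5673 RPM at 20°C and 2259 RPM in generation 10, and mRNA sums peak at 1936 CPM in wild-type generation 1.

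To ask which members depend on SIMR-1 for their small RNAs, simr-1 and wild-type were compared within each condition. A member was called where edgeR's quasi-likelihood test reached 0.05 after Benjamini-Hochberg adjustment over all genes, the change was at least 2-fold and, for small RNAs, the mean reached 10 RPM in either group. Fold changes rest on trimmed mean of M values (TMM) scaling of the reads on genes, so they depart from the ratio of RPM values where the share of reads on genes differs, and log2 fold changes are given with their standard error. At 20°C small RNAs against 26 members were lower in simr-1 and those against 7 were higher, among 154 members that passed the minimum of 10 counts. Over all genes tested 7.27% were called, 5.64% lower and 1.62% higher. The median log2 fold change of the tested members was -0.86, against -0.01 for all genes. In generation 1 at 25°C, 29 members were lower and 8 higher of 137 tested, where 26.7% of all genes were called, 9.18% lower and 17.5% higher, and the medians were -1.91 and -0.10. With library totals in place of TMM the median of all genes in this comparison moved up by 0.47 and the counts were 26 lower and 12 higher. In generation 2, 25 members were lower and 5 higher of 155 (all genes 9.91%, 8.12% lower and 1.79% higher), with medians of -1.29 and -0.05, and with library totals 21 were lower and 8 higher. In generation 7, 23 were lower and 3 higher of 133 (all genes 8.97%, 8.06% lower and 0.912% higher), with medians of -1.10 and 0.02. In generation 10, 24 were lower and 1 higher, 22.2% and 0.926% of members tested, with 114 below the count filter (all genes 13.6%, 12.4% lower and 1.24% higher), with medians of -0.92 and -0.08. The share of tested members called lower was 16.9%, 21.2%, 16.1%, 17.3% and 22.2% across the conditions. These shares include copies whose reads are partly shared. Among members with under 5% repeated 22-base windows, 15 of 92, 13 of 85, 12 of 95, 9 of 85 and 11 of 66 were lower in the same order. In the same members 5, 8, 5, 3 and 1 were higher.

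**Figure D2:**
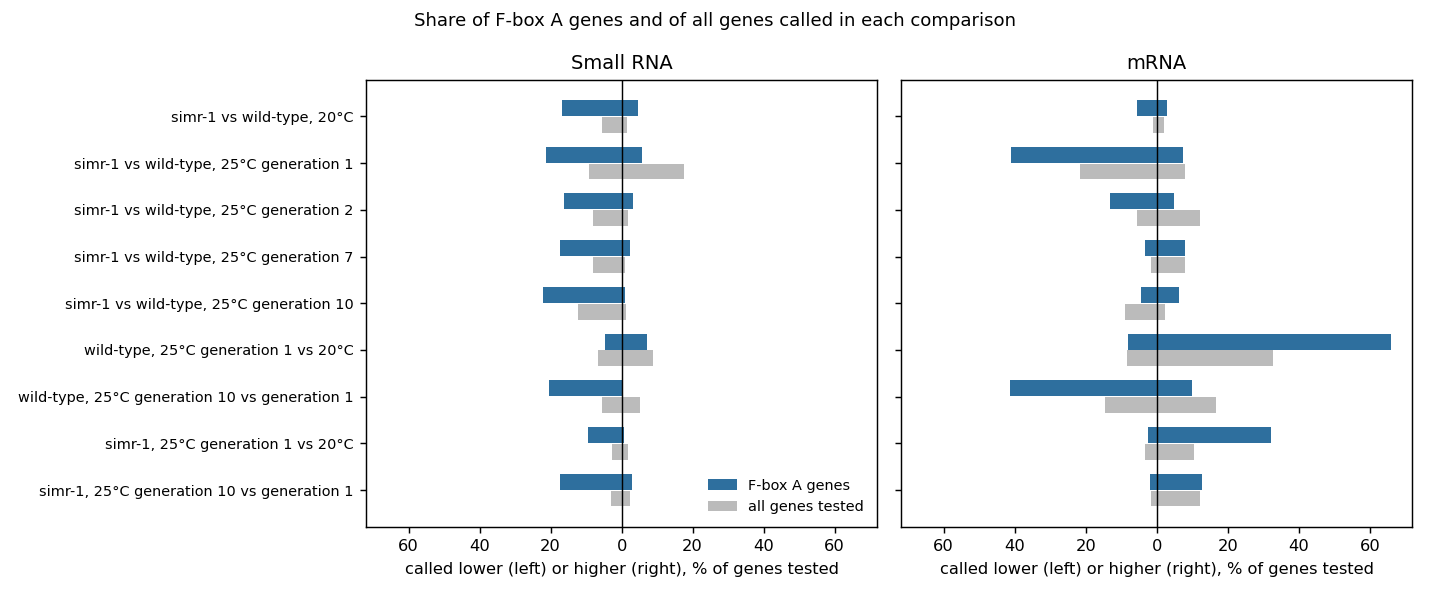
Share of genes called lower (bars to the left) or higher (bars to the right) in each of 9 comparisons, in percent of genes tested, for F-box A members and for all genes, with small RNAs and mRNA in separate panels. For small RNAs the share of members lower in simr-1 exceeds that of all genes in each of the 5 conditions (16.9% against 5.64% at 20°C, 22.2% against 12.4% in generation 10). The largest mRNA bar is the 65.9% of members higher in wild-type in generation 1 at 25°C than at 20°C.

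Over the 5 conditions, small RNAs against 41 members were called lower in at least 1 condition and those against 11 higher, 51 members in all, and fbxa-11 alone was called in both directions. These are 23.7%, 6.36% and 29.5% of the 173 members tested in any condition, against 14.4%, 16.5% and 30.2% of all genes. Lower in all 5 conditions were 10 members, 5.78% against 2.11% of all genes: fbxa-10, fbxa-13, fbxa-63, fbxa-110, fbxa-111, fbxa-120, fbxa-136, fbxa-166, fbxa-178 and fbxa-216. One of these was fbxa-136 (chrV:17521037-17527479, plus strand). Its small RNAs were at 56.9 and 51.9 RPM in wild-type and 8.12 and 7.57 RPM in simr-1 at 20°C, and at 187 and 190.4 RPM and 9.16 and 9.61 RPM in generation 10. Wild-type libraries therefore gained small RNAs at 25°C while every mutant library stayed at or below 11.9 RPM, and the log2 fold change went from -2.88 ± 0.12, adjusted p = 1.63e-11 at 20°C to -4.39 ± 0.09, adjusted p = 6.77e-11 in generation 10. Its mRNA was scarce: 0 CPM in each wild-type library at 20°C, 2.03, 1.57 and 1.38 CPM in wild-type generation 10 and 1.32, 0.687 and 0.776 CPM in simr-1 generation 10, a difference that was not called (-0.82 ± 0.30, adjusted p = 0.0336).

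A similar pattern was seen for fbxa-166 (chrII:1616912-1619004, minus strand), a member of the chromosome II cluster that also holds fbxa-158. Its small RNAs were at 79.8 and 75.1 RPM in wild-type and 22.9 and 20.8 RPM in simr-1 at 20°C (-1.91 ± 0.08), and at 169 and 169.6 RPM and 9.30 and 11.5 RPM in generation 10 (-4.09 ± 0.11, adjusted p = 1.87e-10). The groups did not overlap, and in generation 10 the wild-type values were higher and the mutant values lower than at 20°C. For fbxa-63 (chrIII:1243513-1245283, plus strand) the wild-type values in generation 10 were 19 and 18.3 RPM and the mutant values 0.547 and 0.430 RPM, the lowest fitted log2 fold change of that generation (-5.27 ± 0.27, adjusted p = 4.31e-08). For fbxa-13 (chrIII:1703500-1705899, minus strand) they were 80.5 and 98.8 RPM and 6.29 and 8.18 RPM (-3.69 ± 0.13). The largest falls at 20°C were those of fbxa-3 (from 15.3 and 16.2 RPM to 1.99 and 1.59 RPM, -3.21 ± 0.18), fbxa-60 (from 51.0 and 48.1 RPM to 6.76 and 5.07 RPM, -3.14 ± 0.14), fbxa-136 and fbxa-98 (from 15.3 and 18.6 RPM to 2.92 and 2.05 RPM, -2.84 ± 0.19).

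Other members lost small RNAs in only some generations. For fbxa-184 (chrII:1710259-1711417, plus strand) wild-type libraries held 65.7 and 74.5 RPM at 20°C, 51.7 and 43.1 RPM in generation 1, 27.5 and 22 RPM in generation 7 and 2.17 and 2.47 RPM in generation 10. The mutant libraries held 13.2 and 10.8, 4.32 and 5.0, 1.41 and 0.953 and 0.683 and 0.717 RPM in the same order. Both strains thus fell over time, and the log2 fold change of simr-1 against wild-type was -3.77 ± 0.12 in generation 1 and -4.44 ± 0.19 in generation 7, while in generation 10 both groups were under 10 RPM and no call was possible. For fbxa-90 the generation 1 values were 15.3 and 14.2 RPM in wild-type and 1.02 and 0.978 RPM in simr-1 (-4.35 ± 0.20), and for fbxa-109, a pseudogene, the generation 2 values were 10.9 and 13.4 RPM and 1.71 and 1.32 RPM (-3.39 ± 0.25). The pseudogene fbxa-203 moved from a rise to a fall: it was at 648 and 675 RPM in wild-type and 1339 and 1347 RPM in simr-1 at 20°C (0.94 ± 0.03, under 2-fold), and at 447 and 469 RPM and 225 and 243 RPM in generation 10 (-1.03 ± 0.07, adjusted p = 3.04e-07). The size of its rise at 20°C rests on the replicated libraries. In the single simr-1 library fbxa-203 made up 16.9% of a family sum of 3965.9 RPM, well under the replicated mutant levels.

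The members with more small RNAs in simr-1 were few, and 3 of the 7 called at 20°C lay in 1 stretch of chromosome V. Another, fbxa-107, lay in a separate cluster of that chromosome. From V 17637982 to V 17658198 (20.2 kb) the pseudogene fbxa-191, the protein-coding gene fbxa-192, the pseudogenes fbxa-193 and fbxa-129 and the protein-coding gene fbxa-108 follow each other on the minus strand, and fbxa-107, whose first bases are shown above with those of fbxa-108, lies at chrV:18123939-18125245, plus strand. At most 3.0% of the windows of any of the 6 are repeated elsewhere, so their reads were largely their own. The most abundant small RNAs of the stretch matched fbxa-193 (chrV:17653482-17655281, minus strand). They were at 141 and 147 RPM in wild-type and 669 and 653 RPM in simr-1 at 20°C, a log2 fold change of 2.12 ± 0.04, adjusted p = 1.27e-15. In generation 7 they were at 81.9 and 77.2 RPM and 294 and 296 RPM (1.80 ± 0.05), and in generation 10 at 67 and 76.5 RPM and 48.1 and 45.1 RPM (-0.68 ± 0.07, adjusted p = 1.98e-05, under 2-fold). The mutant values were the higher ones without overlap through generation 7 and the lower ones in generation 10.

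Its mRNA took the opposite course. It was at 12.3, 15.9 and 15.4 CPM in wild-type and 0.360, 0.478 and 0.266 CPM in simr-1 at 20°C (-5.35 ± 0.22, adjusted p = 1.17e-08), at 12.8, 15.4 and 13.9 CPM and 0.726, 0.653 and 0.861 CPM in generation 1 (-4.19 ± 0.18), at 9.72, 10.1 and 9.65 CPM and 4.37, 4.69 and 3.37 CPM in generation 7 (-1.14 ± 0.11) and at 5.53, 5.13 and 5.07 CPM and 7.40, 5.84 and 7.48 CPM in generation 10 (0.42 ± 0.14, adjusted p = 0.0188). The mRNA deficit of the mutant was therefore largest at 20°C, where the libraries come from neither of the wild-type groups that stood apart, and was not present in generation 10, when its libraries were all above those of wild-type by less than 2-fold.

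The pseudogene fbxa-129 and the gene fbxa-108 also had more small RNAs and less mRNA in simr-1 at 20°C. Small RNAs against fbxa-129 were at 11.1 and 8.79 RPM in wild-type and 94.4 and 91.0 RPM in simr-1 at 20°C (3.13 ± 0.09, adjusted p = 2.88e-13) and at 14.9 and 17.3 RPM and 16.4 and 17.4 RPM in generation 10 (0.01 ± 0.13), where the groups overlapped. Its mRNA was at 7.25, 8.0 and 6.17 CPM and 1.22, 1.43 and 1.46 CPM at 20°C (-2.47 ± 0.17, adjusted p = 1.05e-06), and the fold change in generation 10 was 0.65 ± 0.15, not called. Small RNAs against fbxa-108 were at 15.0 and 17.2 RPM and 56.7 and 59.8 RPM at 20°C (1.77 ± 0.10, adjusted p = 5.86e-10), and its mRNA was at 15.9, 16.4 and 16.9 CPM and 2.02, 2.39 and 2.66 CPM (-2.85 ± 0.12, adjusted p = 2.18e-08). In generation 7 its small RNAs were at 22.1 and 21.3 RPM and 21.3 and 22.8 RPM, overlapping values (-0.07 ± 0.10), and in generation 10 at 13.4 and 16.9 RPM and 25.6 and 26.4 RPM, still the higher ones in simr-1 (0.72 ± 0.13, adjusted p = 0.00055, under 2-fold). In generation 10 the mRNA of fbxa-108 was at 17.9, 20.6 and 17.8 CPM in wild-type and 22.4, 19.2 and 20.3 CPM in simr-1, overlapping values (0.16 ± 0.09). For fbxa-107 the 20°C small RNA values were 60.4 and 59.6 RPM and 153 and 147 RPM (1.24 ± 0.05) and the mRNA values 16.5, 17.8 and 18.4 CPM and 3.31, 2.55 and 2.92 CPM (-2.63 ± 0.12, adjusted p = 3.05e-08).

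The neighbors fbxa-192 and fbxa-191 lost mRNA at 20°C without a rise of small RNAs. The mRNA of fbxa-192 was at 13.8, 12.6 and 10.8 CPM in wild-type and 0.792, 0.637 and 0.929 CPM in simr-1 (-4.03 ± 0.18, adjusted p = 2.18e-08), while its small RNAs were at 81.0 and 77.9 RPM and 94.8 and 92.6 RPM (0.15 ± 0.05, not called). In generation 10 the mRNA was at 4.06, 5.17 and 5.02 CPM in wild-type and 37.2, 35.4 and 35.6 CPM in simr-1 (2.94 ± 0.10, adjusted p = 6.48e-13), and the small RNAs at 128.5 and 128 RPM and 26 and 27.4 RPM (-2.33 ± 0.08, adjusted p = 1.54e-09). All 3 mutant libraries had thus passed from the bottom to the top for mRNA, and both from the top to the bottom for small RNAs. The mRNA of fbxa-191 was at 4.11, 4.08 and 4.63 CPM and 0.216, 0.0797 and 0.398 CPM at 20°C (-4.14 ± 0.32, adjusted p = 3.28e-06) and at 1.24, 1.06 and 1.5 CPM and 9.62, 8.33 and 7.27 CPM in generation 10 (2.75 ± 0.19, adjusted p = 5.66e-09). Its small RNAs were lower in simr-1 in both conditions, 34.2 and 30.5 RPM against 17.9 and 17.3 RPM at 20°C (-0.96 ± 0.11, just under 2-fold) and 22.7 and 20.1 RPM against 7.93 and 11.1 RPM in generation 10 (-1.24 ± 0.18, adjusted p = 0.000127).

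**Figure D3:**
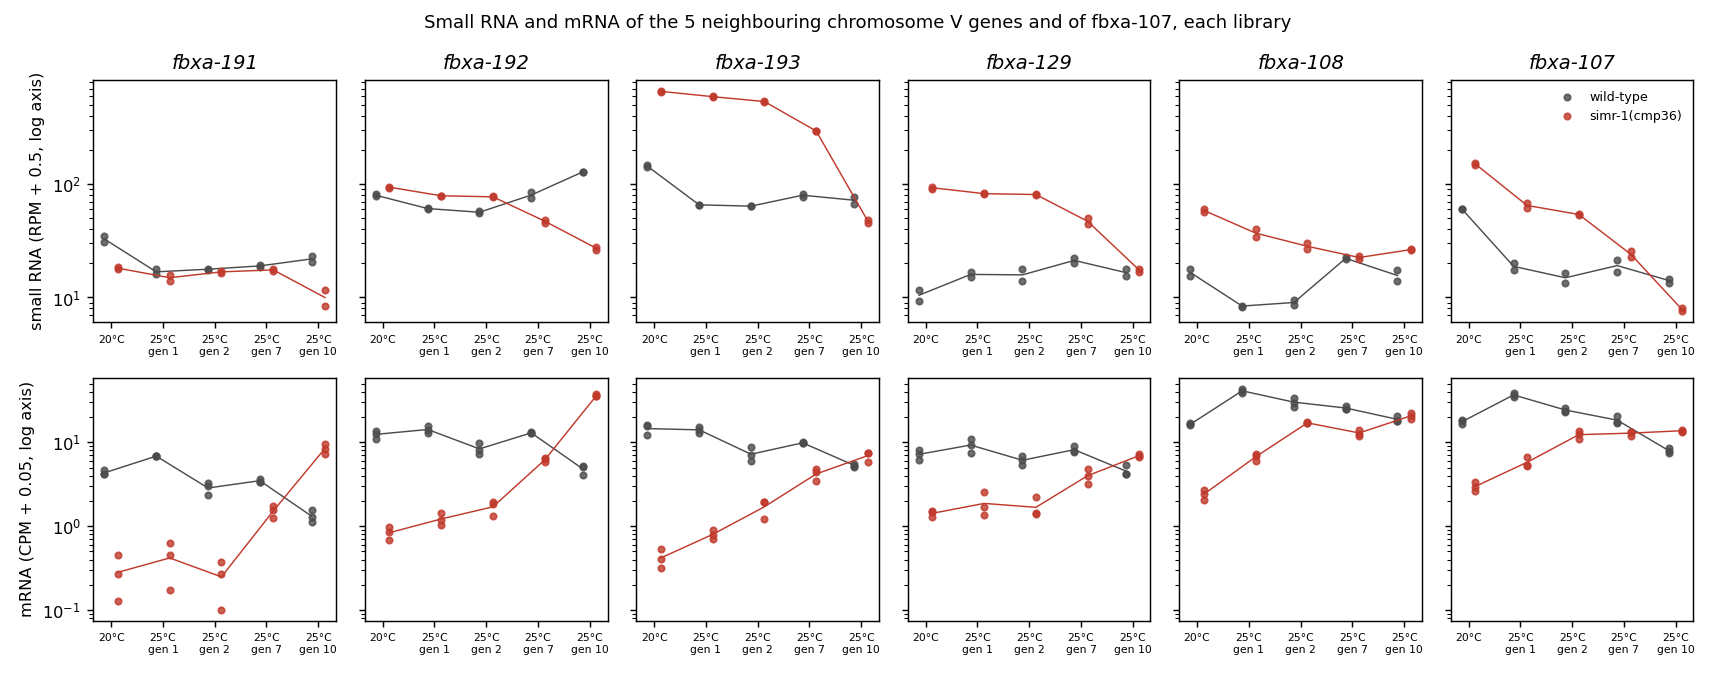
Small RNA levels (RPM + 0.5, log axis, top) and mRNA levels (CPM + 0.05, log axis, bottom) of fbxa-191, fbxa-192, fbxa-193, fbxa-129, fbxa-108 and fbxa-107 by growth condition. Points are libraries, lines join group means, wild-type in grey and simr-1 in red. At 20°C the mRNA of every one of the 6 is lower in simr-1 (log2 fold change -5.35 for fbxa-193), and in generation 10 fbxa-191 and fbxa-192 are higher by 2.75 and 2.94.

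In the single simr-1 library, prepared separately at 20°C, 3 members of this group did not show the same direction as the replicated libraries. Small RNAs against fbxa-193 were at 89.5 RPM in that library and 217 RPM in its wild-type control (log2 ratio -1.27), those against fbxa-107 at 22.4 and 36.6 RPM (-0.69), and those against fbxa-129 at 9.09 and 10.4 RPM (-0.19). Those against fbxa-108 were at 25.9 and 16.7 RPM (0.62). The rise of fbxa-193, fbxa-129 and fbxa-107 thus rests on the replicated libraries, and a single library has no replicate check.

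On chromosome III, a run of 12 members from III 933585 to III 963679 held 3 neighbors with large changes in late generations. Small RNAs against fbxa-11 (chrIII:950869-952264, plus strand) were at 114 and 103 RPM in wild-type and 20.3 and 22 RPM in simr-1 at 20°C (-2.45 ± 0.07, adjusted p = 2.91e-13). They were at 47.6 and 35.6 RPM and 7.89 and 7.68 RPM in generation 7 (-2.49 ± 0.13) and at 6.51 and 6.55 RPM and 15.2 and 15.8 RPM in generation 10 (1.18 ± 0.16, adjusted p = 0.000102). The sign change came mostly from the wild-type libraries, which lost small RNAs between generations 1 and 10 (-4.11 ± 0.10, adjusted p = 3.64e-10). The mRNA of fbxa-11 did not differ by a call at 20°C, with 2.54, 2.83 and 2.19 CPM in wild-type and 2.16, 2.31 and 3.05 CPM in simr-1. It was at 2.95, 2.86 and 3.36 CPM and 13.2, 11.9 and 10.0 CPM in generation 7 (2.02 ± 0.13, adjusted p = 2.34e-05) and at 4.12, 3.79 and 3.34 CPM and 34.4, 32.6 and 33.7 CPM in generation 10 (3.18 ± 0.10, adjusted p = 2.75e-13), where wild-type stayed at its earlier level and all mutant libraries were higher.

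The adjacent fbxa-67 (chrIII:949300-950670, minus strand) had 20.7% repeated windows. Its small RNAs were at 538 and 526 RPM in wild-type and 314 and 314 RPM in simr-1 at 20°C (-0.85 ± 0.03, under 2-fold), 300.2 and 295 RPM and 80.5 and 79.0 RPM in generation 7 (-1.99 ± 0.05) and 199 and 204.8 RPM and 27.2 and 21.2 RPM in generation 10 (-3.12 ± 0.10, adjusted p = 8.15e-10). The gap between the strains widened over the generations and never overlapped. Its mRNA was at 5.16, 6.15 and 6.78 CPM and 5.16, 5.50 and 6.24 CPM at 20°C, overlapping values, and at 6.43, 7.90 and 5.93 CPM and 33, 32.8 and 30.6 CPM in generation 10 (2.26 ± 0.11, adjusted p = 4.51e-11). For fbxa-10 (chrIII:952419-953803, plus strand) the small RNAs were lower in simr-1 in every condition, with log2 fold changes of -2.22 ± 0.05 at 20°C, -3.51 ± 0.12 in generation 7 and -1.16 ± 0.11 in generation 10. Its mRNA was called in generation 10, at 2.2, 1.34 and 1.56 CPM in wild-type and 4.69, 3.95 and 4.94 CPM in simr-1 (1.45 ± 0.21, adjusted p = 2.81e-05).

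Most members with lower small RNAs had no mRNA call. Of the 19 members with lower small RNAs at 20°C that were tested in both assays, 18 had no mRNA call, and fbxa-46 was higher (all genes with lower small RNAs: 3.86% had higher mRNA and 94.4% no call). In generation 1, 4 of 24 such members had higher and 6 lower mRNA (16.2% and 22.6% of such genes), and in generation 2, 2 of 22 had higher and 0 lower mRNA by edgeR's calls (12% and 5.99%). In generation 7, 4 of 21 such members had higher mRNA (fbxa-11, fbxa-67, fbxa-117 and fbxa-120), against 9.38% of all genes with lower small RNAs. In generation 10, 6 of 22 did (fbxa-10, fbxa-67, fbxa-117, fbxa-118, fbxa-191 and fbxa-192), against 10.6% of such genes. Of the 7 members with higher small RNAs at 20°C, fbxa-107, fbxa-108, fbxa-129 and fbxa-193 had lower mRNA and fbxa-125 had higher mRNA, where 18.7% and 4.95% of all genes with higher small RNAs did. In generation 1, 3 of 8 such members had higher and 4 lower mRNA (12.2% and 1.78% of genes), and in generation 2, 1 and 2 of 5 (5.41% and 6.18%). These counts were not tested.

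Member fbxa-125 (chromosome I) was the only one whose mRNA was higher in simr-1 in all 5 conditions. It was at 0.0748, 0.163 and 0.257 CPM in wild-type and 3.02, 3.43 and 3.65 CPM in simr-1 at 20°C (4.33 ± 0.34, adjusted p = 4.44e-06) and at 0.113, 0.185 and 0.231 CPM and 0.740, 0.515 and 0.706 CPM in generation 10 (1.87 ± 0.49, adjusted p = 0.00496). Small RNAs were higher too, at 5.56 and 6.55 RPM and 32.8 and 33.6 RPM at 20°C (2.37 ± 0.14, adjusted p = 1.65e-09), so both measures pointed the same way. Member fbxa-120 (chrX:17302719-17303994, plus strand) had small RNAs at 335 and 361 RPM in wild-type and 91.6 and 83.2 RPM in simr-1 at 20°C (-2.08 ± 0.05) and at 119.4 and 119.5 RPM and 49.8 and 48.1 RPM in generation 10 (-1.35 ± 0.07). Its mRNA was higher in simr-1 in generations 1, 2 and 7, with 5.43, 5.17 and 4.76 CPM in wild-type and 11.8, 12.6 and 12.7 CPM in simr-1 in generation 7 (1.33 ± 0.09, adjusted p = 2.86e-05), and differed by less than 2-fold at 20°C and in generation 10.

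**Figure D4:**
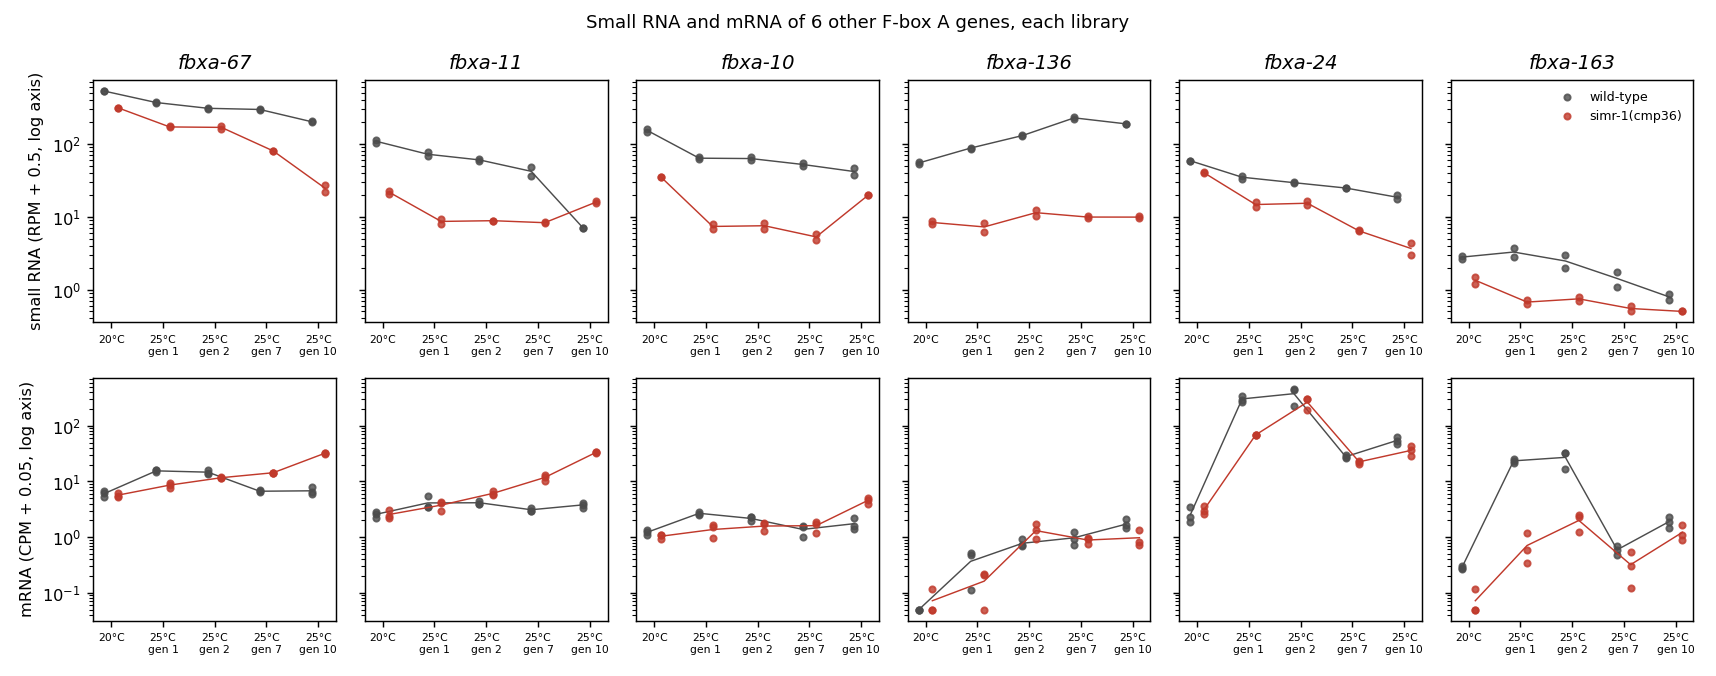
Small RNA levels (RPM + 0.5, log axis, top) and mRNA levels (CPM + 0.05, log axis, bottom) of fbxa-67, fbxa-11, fbxa-10, fbxa-136, fbxa-24 and fbxa-163 by growth condition. Points are libraries, lines join group means, wild-type in grey and simr-1 in red. Small RNAs of fbxa-67 reach a log2 fold change of -3.12 in generation 10 while its mRNA reaches 2.26, and the mRNA of fbxa-24 rises in wild-type from at most 3.38 CPM at 20°C to at least 270.1 CPM in generation 1.

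Comparison of the mRNA of simr-1 and wild-type over the whole family gave counts that depended on the condition. At 20°C, 8 members were lower and 4 higher of 143 tested (all genes 3.1%, 1.2% lower and 1.9% higher), with median log2 fold changes of 0.11 for the tested members and 0.02 for all genes. Besides the 6 members of the chromosome V group, fbxa-149 (-1.25 ± 0.23, adjusted p = 0.00285) and fbxa-163 (-2.88 ± 0.96, adjusted p = 0.0488, 0.0667 with the replicate number as a block, at no more than 0.257 CPM) were lower. The higher members were fbxa-125, fbxa-46 (2.02 ± 0.63, adjusted p = 0.0376, 0.0765 with that block), fbxa-187 (1.73 ± 0.51, adjusted p = 0.029) and fbxa-2 (1.02 ± 0.24, adjusted p = 0.0109).

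In generation 1 at 25°C, 73 members were lower and 13 higher of 178 (all genes 29.7%, 21.7% lower and 7.98% higher), with medians of -0.96 and -0.15. These calls use the wild-type libraries with fewer oocyte and more muscle markers, and the same libraries enter the wild-type temperature comparison below. The largest fall with reads in both groups was that of fbxa-163 (chrII:1609256-1610715, minus strand), at 21.6, 23.3 and 25.3 CPM in wild-type and 0.545, 1.14 and 0.287 CPM in simr-1 (-5.24 ± 0.21, adjusted p = 2.94e-14). Members fbxa-185 (0.401, 0.285 and 0.425 CPM in wild-type and 0 in each in simr-1), fbxa-116 (0.372, 0.201 and 0.182 CPM and 0 in each) and fbxa-7 (1.17, 1.20 and 1.27 CPM and 0.0605, 0.0816 and 0) were at or near 0 in the mutant. The largest rises were those of fbxa-46 (3.71 ± 0.71), fbxa-120 (3.10 ± 0.19), fbxa-200 (from 0.637, 0.936 and 0.546 CPM to 6.17, 5.88 and 5.05 CPM, 3.03 ± 0.23) and fbxa-125. In generation 2, 25 were lower and 9 higher of 189 (all genes 17.7%, 5.45% lower and 12.2% higher), with medians of -0.33 and -0.02, and with library totals 22 were lower and 13 higher, in libraries whose oocyte and sperm marker sums did not overlap between the strains, as given above, the part of which was not tested. The largest changes there were the falls of fbxa-28 (-4.15 ± 0.63), fbxa-163 (-3.86 ± 0.33) and fbxa-191 (-3.68 ± 0.39) and the rises of fbxa-223 (from 0, 0 and 0.0505 CPM to 0.411, 0.497 and 0.410 CPM, 4.47 ± 0.79), fbxa-125 (3.84 ± 0.40), fbxa-224 (2.86 ± 0.40) and fbxa-196 (2.85 ± 0.36).

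In the later generations fewer members differed. In generation 7, 6 were lower and 14 higher of 175 (all genes 9.33%, 1.5% lower and 7.83% higher), with medians of 0.09 and 0.00, and with library totals 4 were lower and 18 higher. Without simr-1 replicate 1 there were 13 calls in place of 20. In generation 10, 8 were lower and 11 higher of 179 (all genes 11.2%, 8.98% lower and 2.24% higher), with medians of -0.17 and -0.07, and with library totals the larger count changed sides, with 15 lower and 10 higher. Outside the members already described, the largest rise in generation 7 was that of fbxa-224 (2.69 ± 0.50, adjusted p = 0.00591) and the largest falls were those of fbxa-164 (-2.16 ± 0.56, adjusted p = 0.0226) and fbxa-36 (-1.39 ± 0.33, adjusted p = 0.015). In generation 10 the largest falls were those of fbxa-86 (-2.77 ± 1.03, adjusted p = 0.0354), fbxa-41 (-2.66 ± 1.05, adjusted p = 0.0475, 0.0646 with the replicate number as a block), fbxa-62 (-2.32 ± 0.45, adjusted p = 0.000531) and fbxa-52 (-2.18 ± 0.62, adjusted p = 0.00829), all at or under 1.38 CPM. Over the 5 conditions 113 members had an mRNA call (58.9% of members tested against 43.9% of all genes), 80 lower and 37 higher (41.7% and 19.3% against 26.1% and 21.1%), and fbxa-20, fbxa-184, fbxa-191 and fbxa-192 were called in both directions.

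To describe what the raised temperature did in wild-type, generation 1 at 25°C was compared with 20°C. The mRNA of 114 members was higher and that of 14 lower of 173 tested, so 65.9% of tested members rose, where 41.1% of all genes were called, 32.6% higher and 8.5% lower. The median log2 fold change was 1.78 for the tested members (1.73 with the 14 members that were at 0 in a whole group set to the bound given by 3 counts over that group) and 0.28 for all genes. Against generation 7 in place of generation 1, whose oocyte markers summed to 4018.2 to 4292.3 CPM, 33 of 169 members were higher and 5 lower (19.5% and 2.96%, against 10.4% and 2.46% of all genes). Against generation 10, 72 of 173 were higher and 11 lower (41.6% and 6.36%, against 29.2% and 4.85%). The oocyte markers of generation 10 summed to 2887.3 to 3057.3 CPM. Its germ line markers summed to 1594.2 to 1727.9 CPM, against 3186.5 to 3688.7 CPM at 20°C.

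Among the largest rises was that of fbxa-24, which had reads in every library, from 1.79, 2.29 and 3.38 CPM at 20°C to 270.1, 293 and 349.7 CPM in generation 1 (7.01 ± 0.15, adjusted p = 2.02e-15). Its wild-type level was 225, 460.4 and 449 CPM in generation 2, 29.8, 26 and 27.6 CPM in generation 7 and 63.7, 47.6 and 53.4 CPM in generation 10, so every library at 25°C lay above every library at 20°C. In simr-1 it rose from 3.55, 2.95 and 2.59 CPM to 69.4, 68.9 and 67.2 CPM (4.43 ± 0.11, adjusted p = 5e-15), a smaller rise by the test of the difference (-2.49 ± 0.25, adjusted p = 1.86e-08). Member fbxa-60, which was the fifth in mRNA level, rose in wild-type from 15.6, 18.3 and 14.3 CPM to 118.4, 114 and 117.2 CPM (2.82 ± 0.09, adjusted p = 7.07e-14), and fbxa-165 from 0.0748, 0 and 0 CPM to 8.44, 10.9 and 8.68 CPM. Members fbxa-161 and fbxa-7 were at 0 in each 20°C library and reached 1.81, 2.07 and 1.46 CPM and 1.17, 1.20 and 1.27 CPM.

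The most abundant mRNA of the family went the other way. Member fbxa-215 was at 306, 339 and 327 CPM in wild-type at 20°C, 143, 133 and 133 CPM in generation 1 (-1.26 ± 0.07, adjusted p = 9.8e-11), 159.9, 133 and 125 CPM in generation 2, 384, 379 and 364 CPM in generation 7 and 309.8, 339 and 286 CPM in generation 10. Its lowest values were those of the wild-type generation 1 and 2 libraries, and simr-1 was at 427, 389 and 403 CPM in generation 1 and 258, 201 and 224 CPM in generation 2. Small RNAs were low in the same libraries, 31.2 and 26.9 RPM in wild-type generation 1 against 121 and 114 RPM in simr-1 (1.54 ± 0.08, adjusted p = 1.63e-08). The same shape was seen for fbxa-72 (chrV:674911-676754, minus strand), whose mRNA was at 31.1, 36.9 and 31.1 CPM at 20°C, 4.25, 3.94 and 3.16 CPM in generation 1 (-3.14 ± 0.12, adjusted p = 1.5e-12) and 24.5, 28.2 and 21.3 CPM in generation 7. The other large falls were those of fbxa-184 (from 3.29, 3.10 and 3.22 CPM to 0.265, 0.201 and 0.425 CPM, -3.40 ± 0.31), fbxa-200 (from 4.93, 5.34 and 6.95 CPM to 0.637, 0.936 and 0.546 CPM, -3.0 ± 0.24) and fbxa-120 (-2.48 ± 0.21). The marker shifts of wild-type generation 1 given above moved with these results, and their part in them was not tested.

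The CUL-6 partner fbxa-158 (chrII:1619894-1621261, minus strand) lies in a cluster of 9 members from II 1606595 to II 1624672 (fbxa-158 to fbxa-166). The mRNA of 7 of these rose in wild-type in generation 1 against 20°C (32.6% of all genes). In generation 1, 7 were lower in simr-1 than in wild-type (21.7% of all genes). The mRNA of fbxa-158 was at 0.0748, 0.163 and 0.129 CPM in wild-type at 20°C and 7.96, 7.09 and 5.52 CPM in generation 1 (5.66 ± 0.34, adjusted p = 2.92e-10). In simr-1 generation 1 it was at 1.94, 1.80 and 1.55 CPM (-1.96 ± 0.19, adjusted p = 1.57e-08 against wild-type), and in generation 10 the values were 2.93, 2.08 and 3.0 CPM in wild-type and 1.64, 1.03 and 1.41 CPM in simr-1 (-0.93 ± 0.25, adjusted p = 0.00534, just under 2-fold). All 25°C libraries of both strains thus lay above all 20°C libraries. Its small RNAs were under 1 RPM in every replicated library. The other partner, fbxa-75 (chrIII:1303714-1305461, plus strand), was at no more than 0.304 CPM and 0.137 RPM in any library, too low for a call.

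Some genes of the CUL-6 complex and of the intracellular pathogen response changed in the same libraries. Of 14 listed genes of the CUL-6 complex and the intracellular pathogen response, 12 were tested in wild-type and 8 rose in generation 1 against 20°C: the cullin cul-6, the Skp1-related skr-3, skr-4 and skr-5, the RING-type regulator rcs-1, and the other listed genes pals-5, eol-1 and pnp-1. The median of the tested list was 1.45, against 0.28 for all genes, of which 32.6% rose. The mRNA of cul-6 went from 5.61, 5.45 and 4.89 CPM to 15.6, 12 and 14.9 CPM, and that of skr-5 from 0.0748, 0.109 and 0.129 CPM to 8.02, 7.82 and 7.83 CPM. In simr-1 generation 1 they were at 6.17, 4.73 and 5.91 CPM and at 1.15, 1.47 and 1.03 CPM. In that generation 7 of 13 tested genes of the list were lower in simr-1 than in wild-type (21.7% of all genes). In generation 2, 4 of 13 were lower (cul-6, skr-5, eol-1 and F26F2.3), against 5.45% of all genes. At 20°C and in generations 7 and 10 the strains differed by no call of edgeR in the list. Reads of skr-5 and the overlapping fbxa-188 cannot be told apart in the small RNA libraries. Of 25 listed core subunits of SCF complexes, 24 were tested, and 10 rose and 1 fell in wild-type generation 1 (32.6% and 8.5% of all genes). In simr-1 against wild-type 2 were higher and 6 lower in generation 1 (7.98% and 21.7% of all genes), which is near those shares. In generation 2, 2 were lower (5.45% of all genes), and in generation 10, 3 were (skr-8, skr-9 and skr-12, against 8.98%). No gene of the list was called at 20°C or in generation 7.

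The small RNAs of wild-type were compared in the same way. In generation 1 against 20°C, 11 members were higher and 7 lower of 154 (all genes 15.6%, 8.86% higher and 6.71% lower), with medians of 0.26 and 0.07, but with library totals the median of all genes fell by 0.86 and 3 members were higher and 24 lower, so no direction can be given for the family. Member fbxa-52 (chrX:1710293-1711212, minus strand) had the largest fitted rise: wild-type libraries held 60.1 and 55.8 RPM at 20°C, 285 and 287 RPM in generation 1, 122 and 216 RPM in generation 2, 37.7 and 31.7 RPM in generation 7 and 41.8 and 45.3 RPM in generation 10. The rise in generation 1 (3.17 ± 0.06, adjusted p = 1.21e-17) was seen in the wild-type generation 1 and 2 libraries alone, and generation 7 was lower than 20°C. The mutant held 26.8 and 23.8 RPM in generation 1, so simr-1 differed from wild-type there by -3.99 ± 0.07, adjusted p = 7.47e-12. Member fbxa-168 rose from 13 and 11.6 RPM to 62.0 and 54.6 RPM (3.11 ± 0.11) and stayed at 82.4 and 88.5 RPM in generation 10. The largest falls were those of fbxa-61, from 36.5 and 34.5 RPM to 1.84 and 2.95 RPM (-3.01 ± 0.19), fbxa-170, from 39.9 and 40.5 RPM to 2.92 and 3.99 RPM (-2.66 ± 0.17), and fbxa-97, from 70.2 and 63.9 RPM to 9.51 and 6.50 RPM (-2.2 ± 0.14).

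Between generations 1 and 10 of wild-type, small RNAs against 27 members fell and none rose of 133 tested (all genes 10.6%, 5.47% lower and 5.1% higher), with medians of -1.53 and -0.03, and with library totals 18 fell and 5 rose. The largest falls were those of fbxa-115 (chrV:20190535-20192152, minus strand), from 80.2 and 78.7 RPM in generation 1 to 3.91 and 2.22 RPM in generation 10 (-5.32 ± 0.15, adjusted p = 6.88e-10), fbxa-184 (-5.0 ± 0.15), fbxa-90 (from 15.3 and 14.2 RPM to 0.760 and 0.865 RPM, -4.82 ± 0.25) and fbxa-11. For fbxa-115 the intermediate generations lay between, at 47.6 and 46.6 RPM in generation 2 and 27.7 and 25.4 RPM in generation 7. In mRNA, 78 members fell and 19 rose of 189 (all genes 31.1%, 14.5% lower and 16.6% higher), with medians of -0.85 and 0.04. This comparison and the one between generation 1 and 20°C share the wild-type generation 1 libraries. Among members with reads in every library, fbxa-163 fell from 21.6, 23.3 and 25.3 CPM to 2.26, 1.43 and 1.85 CPM (-3.65 ± 0.14, adjusted p = 6.22e-12), and fbxa-88 and fbxa-18 rose by 3.36 ± 0.55 and 3.29 ± 0.65 on the log2 scale.

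Within simr-1, small RNAs against 13 members were lower and those against 1 higher of 139 in generation 1 than at 20°C (all genes 4.52%, 2.6% lower and 1.92% higher), with medians of -0.71 and -0.02. Member fbxa-61 went from 37.4 and 37.6 RPM to 1.02 and 0.761 RPM (-5.32 ± 0.16, adjusted p = 1.45e-10), and the exception was fbxa-168, which rose from 27.7 and 26.6 RPM to 69.6 and 73.6 RPM (1.54 ± 0.07). From generation 1 to 10, 18 fell and 3 rose of 103 (all genes 5.12%, 2.87% lower and 2.25% higher), with medians of -0.27 and -0.01. The largest falls were those of fbxa-115 (-4.78 ± 0.19), fbxa-150 (from 84.5 and 73.7 RPM to 3.28 and 2.3 RPM, -4.63 ± 0.14), fbxa-193 (-3.50 ± 0.06) and fbxa-117 (-2.99 ± 0.08), and the rises were those of fbxa-10 (1.68 ± 0.14), fbxa-168 (1.45 ± 0.06) and fbxa-11 (1.13 ± 0.14).

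The mRNA of 51 members was higher and that of 4 lower of 159 in simr-1 generation 1 than at 20°C (all genes 13.7%, 10.4% higher and 3.32% lower), with medians of 0.50 and 0.02. The 4 falls were those of fbxa-97 (from 3.6, 3.11 and 4.45 CPM to 1.15, 1.39 and 1.21 CPM, -1.67 ± 0.22), fbxa-91 (-1.28 ± 0.37), fbxa-92 (-1.25 ± 0.29) and fbxa-153 (-1.18 ± 0.13), and fbxa-91 and fbxa-92 share most of their windows. From generation 1 to generation 10 of simr-1, 21 rose and 3 fell of 166 (all genes 13.8%, 12.2% higher and 1.57% lower), with medians of 0.03 and 0.03. The largest rises were those of fbxa-192 (5.13 ± 0.13, adjusted p = 1.55e-14), fbxa-191 (4.65 ± 0.28, adjusted p = 9.52e-10), fbxa-193 (3.35 ± 0.21, adjusted p = 1.75e-09) and fbxa-11 (3.32 ± 0.11, adjusted p = 7.37e-13), and the falls were those of fbxa-66 (-1.44 ± 0.27), fbxa-125 (-1.41 ± 0.30) and fbxa-113 (-1.21 ± 0.42). Small RNAs of 9 of the 17 members that had lost them over these generations and were tested in both assays went with a rise of mRNA (fbxa-67, fbxa-107, fbxa-111, fbxa-117, fbxa-118, fbxa-129, fbxa-192, fbxa-193 and fbxa-194), against 24.7% of all genes with such a loss.

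Whether the effect of simr-1 itself changed with the condition was tested as an interaction of genotype and condition, with the same thresholds. For small RNAs the effect differed between generation 1 and 20°C in 27 of 175 members, 3 upward and 24 downward (all genes 14.9%, 8.05% higher and 6.81% lower), with medians of -0.88 for members and -0.14 for all genes. Library totals as scaling turned this split to 11 upward and 10 downward. Between generation 10 and generation 1 it differed in 25 of 157, 11 upward and 14 downward (all genes 10.7%, 3.49% higher and 7.23% lower). For mRNA it differed between generation 1 and 20°C in 71 of 181 members, 11 upward and 60 downward (all genes 23%, 6.59% higher and 16.4% lower), with medians of -1.04 and -0.15. Between generation 10 and generation 1 it differed in 79 of 194, 67 upward and 12 downward (all genes 18.6%, 12.2% higher and 6.42% lower), with medians of 0.97 and 0.17. These comparisons share the generation 1 libraries, where wild-type stood apart.

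The single libraries cover mutants of components of the mutator complex and of other genes, 1 library a strain. The log2 ratio to the 1 wild-type library was taken after adding 0.5 RPM, for members with at least 10 RPM in either library, with no replicate check, and all 13 mutants share that wild-type library. In mut-16, which lacks the scaffold of mutator foci, 51 of 67 members were at least 2-fold lower (27% of all genes with 10 RPM), with a median of -2.56 against 0.48 for all genes. In rde-8, which lacks an endoribonuclease of the complex, 40 of 65 were lower (18.2% of genes), and in the double mutant of its associates nyn-1 and nyn-2 47 of 66 (20.9%), with medians of -1.66 and -2.2. In the simr-1 library 22 of 66 were lower (12.5%), in simr-1; hpo-40 23 of 66 (14.8%) and in hpo-40, a paralog of simr-1, 1 of 67 (2.1%). In wago-1, which lacks 1 of several WAGO Argonautes, 10 of 74 were lower and 9 higher (11.1% and 7.68% of genes). In math-33, a slow-growing strain that was not synchronized, 22 of 69 were lower and 14 higher (37.6% and 21.1% of genes). In rsd-2, hgo-1, C33G3.6, F37C4.5 and Y57G11C.3 between 0 and 4 members were lower, of 65 to 69, where 2.2%, 1.18%, 9.49%, 1.02% and 1.05% of genes were.

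**Figure D5:**
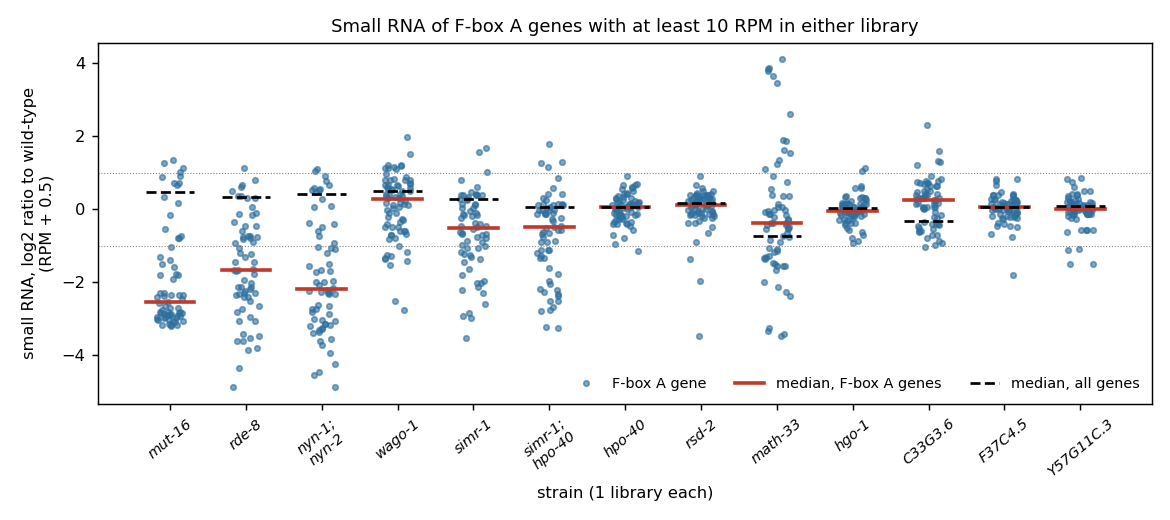
Log2 ratio of small RNAs in each of 13 single mutant libraries to the single wild-type library, 1 point for each F-box A member with at least 10 RPM in either library. Red lines are member medians, black dashed lines medians of all genes and dotted lines mark 2-fold. The member median is -2.56 in mut-16, -2.2 in nyn-1; nyn-2, -1.66 in rde-8 and -0.52 in simr-1.

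The members richest in small RNAs responded to these mutants in different ways. The levels in the wild-type library were 620.7 RPM for fbxa-218, 609 RPM for fbxa-203, 442 RPM for fbxa-149, 401 RPM for fbxa-67 and 257 RPM for fbxa-117. In mut-16 they were 68.0, 85.9, 55.1, 60.8 and 29.8 RPM, log2 ratios between -3.18 and -2.71. In rde-8 fbxa-149 was at 69.0 RPM (-2.67) and fbxa-203 at 638 RPM (0.07), and in nyn-1; nyn-2 they were at 19.4 RPM (-4.47) and 653 RPM (0.10). Small RNAs against fbxa-203 were thus low in the mut-16 library and at the wild-type level in those of the ribonuclease mutants, while those against fbxa-149 were low in all 3. In wago-1 fbxa-218 was at 109 RPM (-2.51) and fbxa-203 at 958 RPM (0.65). In the simr-1 library fbxa-218 was at 570.5 RPM (-0.12), fbxa-149 at 533 RPM (0.27) and fbxa-67 at 214 RPM (-0.90). Of the 51 members at least 2-fold lower in mut-16, 23 were called lower and 6 higher in the replicated simr-1 libraries at 20°C (39.0% and 5.02% of all genes of that class), and of the 16 not lower in mut-16, 1 was lower and 1 higher (0.935% and 0.838%).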

How the data were processed

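The authors clipped and quality-filtered the small RNA reads, aligned them with Bowtie2 to WormBase WS258 and assigned them to genes with featureCounts without regard to strand, splitting reads among overlapping features, so sense and antisense reads cannot be told apart. They aligned mRNA reads with HISAT2 and also name Salmon, and which of these gave the gene values is not given in the sources used here. The values the authors deposited are estimated counts per gene with no normalization, made by these steps, 91.8% to 97.0% of them whole, and were rounded to whole numbers here. Small RNA levels (RPM) are relative to all genome-mapped reads of the library, with the totals the study gives, and mRNA levels (CPM) to library size scaled by TMM.

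Genes whose counts summed to 10 or more in the libraries of a comparison were tested with edgeR 4.0.16 (R 4.3.3), by quasi-likelihood with TMM and Benjamini-Hochberg adjustment over all tested genes, fitting only the groups compared. A gene was called at an adjusted p of at most 0.05 and a change of at least 2-fold, small RNAs only where 1 of the group means reached 10 RPM. The fit was tested on simulated data. Libraries with the same replicate number are known to share only that number. Deviations of same-numbered libraries correlated at -0.14 to 0.364 over 18 small RNA pairs and at -0.269 to 0.656 over 27 mRNA pairs. For small RNAs, with 2 libraries a group, both pairs give 1 value (0.364 for simr-1 against wild-type in generation 2). Among the mRNA comparisons, with 3 pairs each, every pair was above 0.1 only for simr-1 against wild-type in generation 7 (0.413, 0.470 and 0.645) and generation 10 (0.226, 0.104 and 0.309), where the replicate block gave 19 calls for 20 and 21 for 19.

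The members and gene lists were chosen with earlier results of these data known. The genes named are fbxa-75, fbxa-158, the 5 members with the highest mean level in each assay, the called members of each comparison (all if at most 6, otherwise the 4 largest rises and 4 largest falls), the 5 highest in the single wild-type library and called genes of the lists. Other members described were chosen after their values were seen. Alternatives were other size factors, DESeq2 1.42.0, all groups in 1 fit, other filters, a replicate block and leaving out each library.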

Additional observations from a re-analysis of the deposited data

Results flagged for a closer look

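The change of the simr-1 effect between conditions was tested for every gene as an interaction of genotype with condition (edgeR quasi-likelihood, adjusted p at most 0.05 and at least 2-fold, values as differences of log2 fold changes). Comparisons between generation 1 and 20°C and between generation 10 and generation 1 share the generation 1 libraries.

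For small RNAs, the effect differed between generation 1 and 20°C in 27 of 175 members tested, 3 in the higher and 24 in the lower direction (14.9% of all genes, 8.05% higher and 6.81% lower). The medians were -0.88 for the members and -0.14 for all genes. With library totals as scaling the split was 11 higher and 10 lower, where all genes shift by 0.5. The largest differences downward were those of fbxa-52 (-3.70), fbxa-40 (-2.24), fbxa-59 (-2.16) and fbxa-61 (-2.09), and those upward were of fbxa-170 (1.44), fbxa-197 (1.03) and fbxa-215 (1.01).

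Between generation 10 and generation 1 the small RNA effect differed in 25 of 157 members, 11 higher and 14 lower (10.7% of all genes, 3.49% higher and 7.23% lower), with medians of 0.27 and -0.28. With library totals the split was 9 higher and 28 lower. Members with the largest differences were fbxa-11 (4.97), fbxa-52 (3.93), fbxa-109 (3.61) and fbxa-90 (3.5) upward, and fbxa-193 (-3.25), fbxa-63 (-2.26), fbxa-150 (-2.19) and fbxa-107 (-2.15) downward.

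For mRNA, the effect differed between generation 1 and 20°C in 71 of 181 members, 11 higher and 60 lower (23% of all genes, 6.59% higher and 16.4% lower), with medians of -1.04 and -0.15. The wild-type rise at 25°C in generation 1 is part of this difference. The lowest values were those of fbxa-204 (-5.79), fbxa-137 (-5.26), fbxa-39 (-4.75) and fbxa-49 (-4.34), and the highest those of fbxa-200 (2.90), fbxa-184 (2.65), fbxa-72 (2.62) and fbxa-120 (2.59). Since fbxa-204, fbxa-137 and fbxa-39 were at 0 in a whole group, their fitted values depend on the prior count and are no bounds.

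Between generation 10 and generation 1 the mRNA effect differed in 79 of 194 members, 67 higher and 12 lower (18.6% of all genes, 12.2% higher and 6.42% lower), with medians of 0.97 and 0.17. The highest values were those of fbxa-191 (7.07), fbxa-192 (6.69), fbxa-8 (5.90) and fbxa-116 (5.62), of which fbxa-8 and fbxa-116 were at 0 in a whole group. The lowest were those of fbxa-46 (-3.30), fbxa-62 (-2.90), fbxa-200 (-2.51) and fbxa-18 (-2.48).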

How the results depend on the processing

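Of 328 alternative counts of called members, 292 were within 1.5 times the reported count. Without the minimum of 10 RPM, small RNA calls of simr-1 against wild-type were 66 at 20°C and 90, 79, 63 and 43 in generations 1, 2, 7 and 10, those of wild-type 54 (generation 1 against 20°C) and 68 (generation 10 against 1), and those of simr-1 48 and 32. In the single libraries this gave 96 in mut-16, 74 in rde-8, 89 in nyn-2; nyn-1, 47 in simr-1, 57 in simr-1; hpo-40, 4 in hpo-40, 6 in rsd-2, 43 in math-33, 2 in hgo-1, 4 in C33G3.6, 6 in F37C4.5 and 7 in Y57G11C.3. Against the replicated wild-type at 20°C they were 36 in simr-1; hpo-40, 10 in hpo-40, 7 in rsd-2, 4 in hgo-1 and 7 in F37C4.5, and with reads on genes as the total 1 in hgo-1, 0 in C33G3.6 and 2 in F37C4.5. With a later generation at 25°C in place of generation 1, chosen after seeing the data, small RNA calls against 20°C were 37 in wild-type generation 10 and 25 and 28 in simr-1 generations 7 and 10, and mRNA calls were 38 and 83 in wild-type generations 7 and 10 and 94 in simr-1 generation 2. The reversals of named genes came there too, small RNAs of fbxa-52 in wild-type (-0.60 in generation 7), mRNA of fbxa-120 in wild-type (0.40 in generation 10) and mRNA of fbxa-91 in simr-1 (0.23 in generation 2), and for all of these the cause was not tested. Of 1059 other values of named genes under these settings 1016 kept direction and side of the threshold.

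Leaving out 1 library, mRNA calls of simr-1 against wild-type ranged over 8 to 11 at 20°C and 81 to 93, 34 to 45, 13 to 22 and 18 to 21 in generations 1, 2, 7 and 10, with 13 in generation 7 without simr-1 replicate 1, and no named gene changed direction in 962 such values, while 62 lost their call. Library totals moved the small RNA split of higher against lower calls in simr-1 from 8 and 29 to 12 and 26 in generation 1 and from 5 and 25 to 8 and 21 in generation 2 (all genes shifted by 0.47 and 0.37), in wild-type from 11 and 7 to 3 and 24 for generation 1 against 20°C (-0.86) and from 0 and 27 to 5 and 18 for generation 10 against 1 (0.66). For mRNA it moved from 9 and 25 to 13 and 22 in generation 2 (0.17), from 14 and 6 to 18 and 4 in generation 7 (0.11) and from 11 and 8 to 10 and 15 in generation 10 (-0.08). DESeq2 gave 10 higher and 3 lower in generation 10, and the fit of all groups 13 higher and 10 lower in generation 7.

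The replicate block gave 11 mRNA calls at 20°C, without fbxa-163 (adjusted p 0.0667) and fbxa-46 (0.0765) and with fbxa-151. In generation 7 the block added fbxa-111 and left out fbxa-20 and fbxa-71. In generation 10 it added fbxa-172, fbxa-71 and fbxa-91 and left out fbxa-41. The block moved no count of calls by over 1.5 times in any comparison. The crossed pairing of the generation 10 small RNA libraries, chosen after seeing the data, gave 25 calls. Replicate libraries differed beyond sampling noise, but some small RNA pairs only slightly. The chi-square per degree of freedom between replicates was 1.22 to 6.04 for small RNA pairs, lowest in wild-type at 20°C. It was 1.74 to 56.74 for mRNA pairs. With 2 small RNA libraries a group, most members below 10 RPM and a median mRNA level of 1.64 CPM, changes in low members may not be detectable at this depth.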

Other observations

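The other F-box families were read beside the F-box A genes. Of the 113 fbxb genes, small RNAs in simr-1 against wild-type were lower in 18 of 79 tested at 20°C and in 10 of 48, 13 of 67, 8 of 55 and 7 of 40 in generations 1, 2, 7 and 10 at 25°C. Of all genes tested, 5.64%, 9.18%, 8.12%, 8.06% and 12.4% were lower in the same order. The mRNA of fbxb genes in wild-type was higher in 51 and lower in 3 of 87 tested in generation 1 than at 20°C (32.6% and 8.5% of all genes). From generation 1 to generation 10 of wild-type, 56 fbxb genes rose and 1 fell of 102, while 19 F-box A members rose and 78 fell of 189. Of all genes, 16.6% rose and 14.5% fell. In simr-1 over the same generations 60 of 89 fbxb genes rose (12.2% of all genes). Of the 56 fbxc genes, small RNAs were lower in simr-1 in 9 of 39 at 20°C (5.64% of all genes). The mRNA of fbxc genes in wild-type was higher in 21 and lower in 3 of 38 in generation 1 than at 20°C (32.6% and 8.5% of all genes).

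In the single mut-16 library the 51 members at least 2-fold lower lay close together, with log2 ratios of -3.2 to -1.04 and 34 of the 51 between -3.2 and -2.5. In rde-8 the 40 lower members ran from -4.88 to -1.07, with 7 in the same interval, and in nyn-2; nyn-1 the 47 ran from -4.89 to -1.03, with 13 in it. In the math-33 library small RNAs against fbxa-40 were at 331 RPM against 18.6 RPM in wild-type (log2 ratio 4.12), with no replicate check.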
